A study of Mus musculus with 16 samples.

Results

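H3K27Ac, the acetylation of histone H3 that marks active promoters and enhancers, was examined around 5 collagen genes, Col1a1, Col1a2, Col3a1, Col4a1 and Col4a2, in mouse liver and liver tumors. The genes were chosen by name as the main fibrillar and basement membrane collagens, and each was followed through all peaks in a fixed window of the mm9 genome. The windows were chr11:94780000-94830000 for Col1a1, chr6:4440000-4505000 for Col1a2, chr1:45350000-45420000 for Col3a1 and chr8:11180000-11465000, shared by Col4a1 and Col4a2. These 4 windows held 254 of the 500869 peaks called in the 15 animals, and 22 of the 56941 regions obtained when the peaks of all animals were merged. An mm9 gene annotation was not used here, so the placement of the genes in the windows was taken as given and no peak is assigned to a promoter, exon or intron.

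All 15 tissues came from different mice, 5 per group. Wild type (WT) livers were from mice of 14 to 19 months whose strain is labelled FVB.129P2 and is called FVB/NJ in the study's text. Inflamed livers were from Mdr2-/- mice of strain FVB.129P2-Abcb4tm1Bor/J at 7 to 8 months, and HCC nodules (hepatocellular carcinoma) were from Mdr2-/- mice of 14 to 19 months. The Mdr2 (Abcb4) knockout is present in every cell of the animal and removes the phosphatidylcholine transporter of hepatocytes. Every mouse, WT included, had been given clodronate liposomes at 50 μg per g of body weight for 48 h, a treatment that depletes macrophages. Inflamed and WT livers differ in genotype and in age, and these cannot be told apart. HCC nodules and inflamed livers differ in age as well as in tissue, and these cannot be told apart either. The sex and the batch of each animal are not given in the labels.

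Collagens are the structural proteins of the extracellular matrix. Type I collagen, assembled from the chains encoded by Col1a1 and Col1a2, and type III collagen, a homotrimer of the Col3a1 chain, form the fibrils of scar tissue, which in liver is laid down mainly by activated stellate cells and portal fibroblasts. Type IV collagen, assembled from the chains encoded by Col4a1 and Col4a2, forms the sheet-like network of basement membranes, under vessels, bile ducts and other epithelia. The comparison of inflamed with WT livers addresses the chronic injury of the Mdr2-/- liver, and that of HCC nodules with inflamed livers addresses the step from injured tissue to tumor. Both comparisons also carry a difference in age. In whole tissue, a change in the share of cells that carry the mark and a change in the mark within those cells cannot be told apart.

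RefSeq promoter entries of the GRCm38.p6 build were found for 4 of the 5 genes, all but Col1a1. The 250 bases before the start of Col1a2, chr6:4505368-4505617 on the plus strand, and of Col3a1, chr1:45311288-45311537 on the plus strand, are shown because these fibrillar genes carried the same pattern of acetylation in their windows. Capitals mark matches to the TATA box (letters TATAAA), to the CCAAT box and to the GC box (letters GGGCGG). These and the letters of the AP-1 site, TGANTCA, were searched for on both strands.
Col1a2: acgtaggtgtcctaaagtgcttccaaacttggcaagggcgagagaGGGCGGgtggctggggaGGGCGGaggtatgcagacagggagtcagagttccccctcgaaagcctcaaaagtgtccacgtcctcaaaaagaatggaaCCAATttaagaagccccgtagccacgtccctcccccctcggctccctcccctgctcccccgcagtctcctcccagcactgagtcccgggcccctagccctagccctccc
Col3a1: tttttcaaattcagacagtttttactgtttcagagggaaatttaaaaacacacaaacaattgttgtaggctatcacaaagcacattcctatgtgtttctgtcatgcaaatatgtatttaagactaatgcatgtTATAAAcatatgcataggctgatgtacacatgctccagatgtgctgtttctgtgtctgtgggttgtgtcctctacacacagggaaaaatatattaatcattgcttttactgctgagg

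The Col1a2 promoter was 62% G and C and held GGGCGG at 205 and 188 bases and CCAAT at 109 bases before the start. The Col3a1 promoter was 35.2% G and C and held TATAAA at 117 bases before the start. Col4a1 and Col4a2 run head to head: their annotated starts lie 21 bases apart on opposite strands, so that the start sites share the 22 bases of chr8:11312805-11312826, printed here on the plus strand with the GC box in capitals.
Col4a1 and Col4a2: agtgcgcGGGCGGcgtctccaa

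The 250 bases before the start were 74.4% G and C for Col4a1 and 73.6% for Col4a2, and CCAAT was found in both, at 145 bases on the other strand and at 32 bases on the gene's own strand. The Col4a2 promoter also held GGGCGG at 192 bases and, on the other strand, at 48 bases. Among all 32851 promoter entries of this length, TATAAA occurred in 12.4%, CCAAT in 33.8%, GGGCGG in 32.7% and TGANTCA in 6.75%; none of the 4 collagen promoters held TGANTCA. The promoters are on another build than the peaks and were not set against them.

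The length under peaks was the measure compared between animals, because the files hold peak positions and scores without read counts, and the depth of each library is unknown. Lists held 26375 to 30268 peaks in WT livers, 35901 to 40909 in inflamed livers and 26683 to 42736 in HCC nodules, and the genome under peaks ranged from 92.5 to 175 Mb among nodules. The study left some H3K27Ac samples out of a plot of all samples as outliers, and the legend of that plot does not name them. All 15 animals were kept in the main comparisons here. In an earlier analysis of these lists WT 5 and HCC 1 stood apart from their groups. Neither leaving both out nor scaling by the total length under peaks changed which differences in the collagen windows were called, that is, had an unadjusted exact permutation p under 0.05.

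The Col1a1 window was nearly empty of the mark in WT livers and heavily covered in inflamed livers. WT 1 to 4 had 0 bp under peaks and WT 5 had 6911 bp. The 5 inflamed livers had 17873, 18341, 18460, 16376 and 16686 bp, with 3 peaks in each. HCC nodules had 2586, 6247, 11264, 5011 and 0 bp. Every inflamed liver lay above every WT liver and every nodule, whereas nodules and WT livers overlapped.

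The mean length at Col1a1 was 1382 ± 3091 bp for WT, 17547 ± 960 bp for inflamed and 5022 ± 4231 bp for HCC tissue (SD, n = 5), or 2.76%, 35.1% and 10.04% of the window. Inflamed livers had 16165 bp more than WT livers (two-sided exact permutation p = 0.00794, below which no comparison of 5 with 5 can go; with Benjamini-Hochberg adjustment over 22368 genome tiles of the same length, p = 0.0385). The ratio of these means was 12.7, and it rests on WT 5, the only WT liver with peaks here. Such gains were common genome-wide: 27.2% of tiles were called higher in inflamed livers and 16.1% were higher without overlap, with a median difference of 366.8 bp over all tiles. From inflamed livers to nodules the mean fell by 12526 bp, to 0.286 times its value (exact permutation test, p = 0.00794, adjusted p = 0.124, the lowest that any of 24288 tiles reached), and 11.6% of tiles were called lower in nodules, 4.87% without overlap. Nodules and WT livers differed by 3639 bp, within the spread between animals (exact permutation test, p = 0.167, adjusted p = 0.656).

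**Figure D1:**
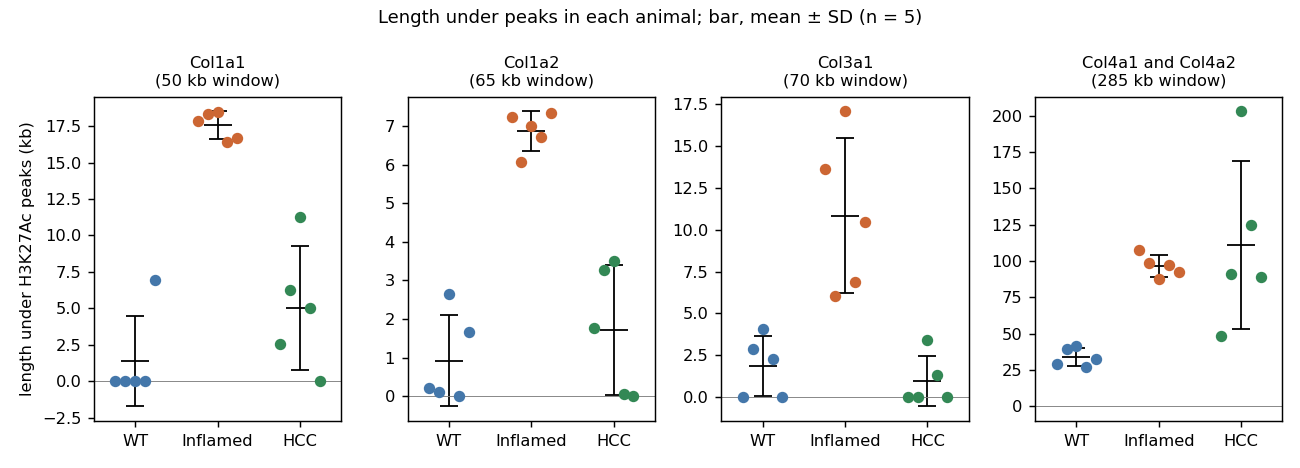
Length under H3K27Ac peaks in each collagen window (y axis, kb), with 1 point per animal and the mean with SD for WT livers, inflamed livers and HCC nodules (n = 5 each). Inflamed livers lie above all WT livers in each window and above all nodules in the Col1a1, Col1a2 and Col3a1 windows, while in the Col4a1 and Col4a2 window nodules spread from 48523 to 202941 bp around the inflamed livers.

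The Col1a1 peaks fell into 3 merged regions, each marked in all inflamed livers and, among WT livers, only in WT 5. How often merged regions over the genome have such a pattern was not computed. The first, chr11:94787590-94792735, had a mean of 4797 ± 254 bp under peaks in inflamed livers and was present in 4 of 5 nodules, with a mean of 2598 bp. In the second, chr11:94793437-94801465, the mean was 7166 ± 541 bp in inflamed livers, and of the nodules only HCC 3 had a peak there, of 2853 bp. The third, chr11:94815808-94821785, had 5584 ± 248 bp in inflamed livers and a mean of 1853 bp over all nodules, again with a peak in 4 of 5.

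A score percentile is the rank of a peak among all peaks of its animal, higher for higher scores. The peaks of the first region stood between the percentiles 59.9 and 72.0 in inflamed livers, at 21.8 in WT 5 and between 10.2 and 94.0 in nodules, where the highest was that of HCC 3. When only the top 50% of each list was kept, the Col1a1 window was empty in all WT livers and in all nodules except HCC 3, which had 8411 bp, while inflamed livers kept 10143 to 18460 bp.

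Col1a2, which encodes the partner chain of type I collagen, followed the same order on a smaller scale. Its window had 215, 101, 2654, 0 and 1669 bp under peaks in WT livers. It had 7230, 6055, 7001, 6700 and 7328 bp in inflamed livers, with 2 peaks in each. HCC nodules had 1766, 3272, 3496, 57 and 0 bp. The lowest inflamed liver, with 6055 bp, was above the highest of all other animals, with 3496 bp.

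The mean length at Col1a2 was 928 ± 1181 bp for WT, 6863 ± 512 bp for inflamed and 1718 ± 1680 bp for HCC tissue (SD, n = 5), or 1.43%, 10.6% and 2.64% of the window. Inflamed livers had 5935 bp more than WT livers, 7.40 times the WT mean (exact permutation test, two-sided, p = 0.00794; adjusted p = 0.0371 over 18811 tiles), and 28.4% of tiles were called higher, 17.2% without overlap. From inflamed livers to nodules it fell by 5145 bp, to 0.250 times the inflamed mean (exact permutation test, p = 0.00794; adjusted p = 0.118), and 11.8% of tiles were called lower, 5.11% without overlap. Counted as peaks instead of bp, the mean differed by -0.8 (nodules minus inflamed livers) and was not called (exact permutation test, p = 0.167). The difference between nodules and WT livers, 790 bp, was within the spread between animals (exact permutation test, p = 0.397, adjusted p = 0.859). The ratio of 7.40 depends on the edge of the window, which cuts peaks of 2485 and 2548 bp in WT 1 and WT 2 to 215 and 101 bp. Peaks of inflamed livers are cut as well. With 10000 bp added on each side, WT livers had 0 to 4656 bp and inflamed livers 9485 to 11512 bp.

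Both Col1a2 regions were weak in WT livers and strong in inflamed livers. The first, chr6:4437075-4441438, runs across the edge of the window and was occupied in 3 WT, 5 inflamed and 3 HCC animals. Its score percentiles were 0.785 to 26.3 in WT livers, 66.6 to 77.2 in inflamed livers and 4.05 to 35.1 in nodules. The second, chr6:4451759-4457803, was marked in 2 WT, 5 inflamed and 3 HCC animals, with means of 652, 5711 and 1500 bp and percentiles of 61.5 to 73.0 in inflamed livers against 14.9 to 18.2 in nodules. In both regions every peak of a nodule ranked below every peak of an inflamed liver. The share of all merged regions with such an order was not computed.

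Col3a1, the gene of type III collagen, had the mark in all inflamed livers and at a lower level in 3 WT livers and 2 nodules. WT livers had 0, 2865, 4089, 2283 and 0 bp under peaks. Inflamed livers had 13665, 6037, 17084, 6901 and 10492 bp, a wider spread among animals than at the type I genes. HCC nodules had 0, 0, 3410, 1314 and 0 bp. As at the type I genes, inflamed livers overlapped neither WT livers nor nodules.

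The mean length at Col3a1 was 1847 ± 1808 bp for WT, 10836 ± 4628 bp for inflamed and 945 ± 1491 bp for HCC tissue (SD, n = 5), or 2.64%, 15.5% and 1.35% of the window. The gain in inflamed over WT livers was 8988 bp, 5.87 times the WT mean (exact permutation test, two-sided, p = 0.00794; adjusted p = 0.0371 over 17902 tiles), and 28.7% of tiles were called higher, 17.1% without overlap. In nodules it fell by 9891 bp, to 0.0872 times the inflamed mean (exact permutation test, p = 0.00794; adjusted p = 0.121), and 12.0% of tiles were called lower, 5.13% without overlap. The difference of nodules from WT livers, -903 bp, was within the spread between animals (exact permutation test, p = 0.444; adjusted p = 0.855).

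The Col3a1 region chr1:45352592-45358034 was the only one in the collagen windows marked in every inflamed liver and in no nodule, a pattern shared by 1.28% of all merged regions. It covered 1922 to 5284 bp in inflamed livers, and of the WT livers only WT 3 had a peak there, of 1358 bp at percentile 3.12. The stronger region, chr1:45364873-45374280, was marked in 3 WT, 5 inflamed and 2 HCC animals, with means of 1576, 6264 and 945 bp, the last of which was 328.5 bp without HCC 3. Its percentiles were 24.5 to 41.1 in WT livers, 50.6 to 92.1 in inflamed livers and 6.41 to 44.5 in nodules, and Inflamed 3 had the highest. A short region between them was present in Inflamed 3 alone, with 2524 bp.

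**Figure D2:**
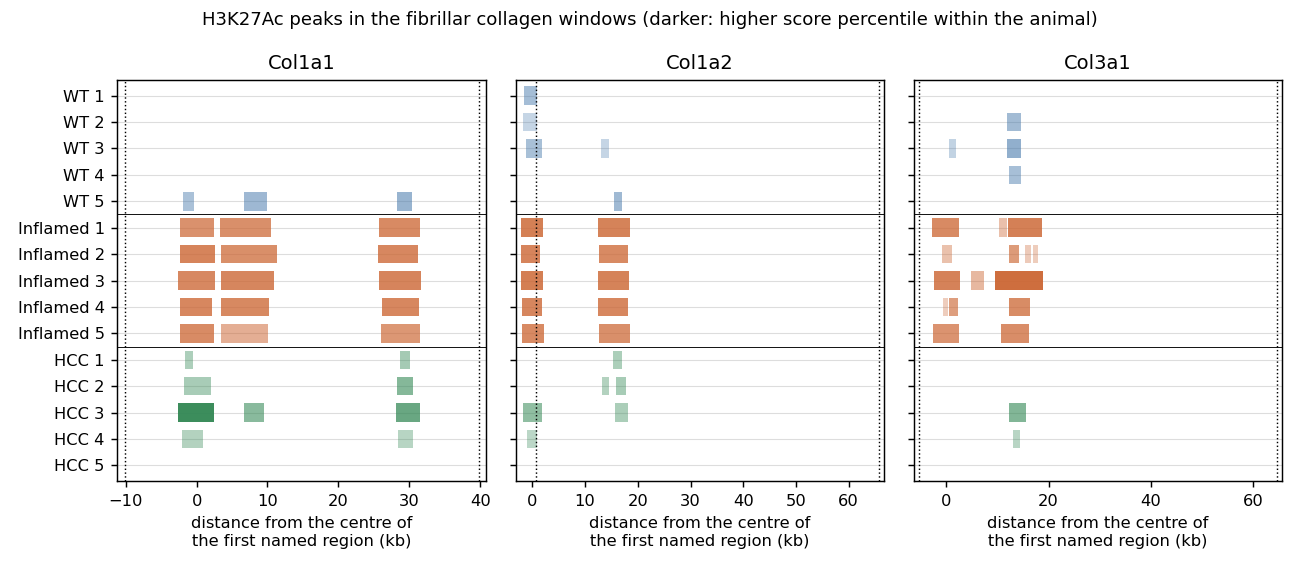
H3K27Ac peaks of each animal (rows) in the Col1a1, Col1a2 and Col3a1 windows; the x axis is the distance in kb from the centre of the first named region, dotted lines are the window ends, and a darker bar has a higher score percentile within its animal. All 5 inflamed livers carry every named region, WT livers 1 to 4 have no Col1a1 peak, and HCC 5 has no peak in any of the 3 windows.

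The window of the type IV collagen genes Col4a1 and Col4a2 was marked in every animal, and both inflamed livers and nodules had more of it under peaks than WT livers. WT livers had 28816, 39420, 41120, 27129 and 32513 bp under peaks. Inflamed livers had 107470, 98256, 87855, 97005 and 92295 bp. HCC nodules had 48523, 90865, 202941, 124504 and 88610 bp. Inflamed livers and nodules each lay wholly above WT livers, and the nodules lay on both sides of the inflamed livers.

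The mean length at Col4a1 and Col4a2 was 33800 ± 6248 bp for WT, 96576 ± 7350 bp for inflamed and 111089 ± 57978 bp for HCC tissue (SD, n = 5), or 11.9%, 33.9% and 39.0% of the window. Inflamed livers had 62777 bp more than WT livers, 2.86 times their mean (exact permutation test, two-sided, p = 0.00794; adjusted p = 0.0330 over 6420 tiles), where 33.5% of tiles were called higher, 21.0% without overlap. Nodules had 77289 bp more than WT livers, 3.29 times the mean (exact permutation test, p = 0.00794; adjusted p = 0.316, the lowest that any of 6578 tiles reached), and 7.57% of tiles were called higher in nodules, 1.41% without overlap. Between nodules and inflamed livers the difference of 14512 bp was within the spread between animals (exact permutation test, p = 0.706; adjusted p = 0.992). Without HCC 3 its sign turned, to -8451 bp (nodules minus inflamed livers, exact permutation test, p = 0.611).

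HCC 3 stood apart in this window, with 71.2% of it under peaks. In that animal 21.4% of the 1 Mb on each side was also covered, against 7.28% to 12.3% in the other nodules and 6.88% to 8.01% in inflamed livers. HCC 1 was lowest, with 48523 bp, still above the highest WT liver. The median nodule had 90865 bp, inside the inflamed range. Leaving out any 1 animal, HCC 3 included, the gain of nodules over WT livers was 54326 to 92930 bp, with exact permutation p from 0.00794 to 0.0159.

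Of 14 merged regions in the Col4a1 and Col4a2 window, 3 had a peak in all 15 animals, while no fibrillar region did. The region chr8:11302782-11343250 was one of these, and it had 6247 ± 1731 bp under peaks in WT livers, 22483 ± 2678 bp in inflamed ones and 28051 ± 8039 bp in nodules. No animal of the latter groups was below 19306 bp there and no WT liver was above 8705 bp. How often merged regions separate the groups in this way was not computed. The neighbouring region chr8:11266874-11300940 had means of 9013, 14433 and 20151 bp in the same order. At both places the mean was lowest for WT livers and highest for nodules, also without HCC 3 (nodule means of 24947 and 16760 bp); these lengths were not tested region by region.

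The other region common to all 15 animals, chr8:11446229-11483791, reaches past the end of the window. Its best peak in every animal had the score 3100, at percentiles of 87.1 to 94.7. That score is tied among 9.52% to 24.5% of the peaks of a list. In WT 5 and HCC 1 this best peak lay beyond the window, and their best peaks of the region overlapping the window stood at percentiles 63.1 and 65.6. The gene next to Col4a2 in the GRCm38.p6 order is Rab20, which encodes a small GTPase of vesicle traffic. With the window ended before this region, the WT, inflamed and HCC means were 24792 ± 6078, 82915 ± 7371 and 96313 ± 55794 bp, and no call changed.

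At further regions of the Col4a1 and Col4a2 window all inflamed livers had a peak, and the ranges of nodules and WT livers overlapped. At chr8:11364711-11402730 WT livers had 0, 0, 2459, 0 and 6331 bp, inflamed livers 25145, 19370, 2622, 23571 and 20691 bp, and nodules 1974, 18701, 38020, 28488 and 15557 bp, so that Inflamed 3 and HCC 1 lay below WT 5. The WT mean there was 1758 bp, and 614.8 bp without WT 5. The HCC mean was 20548 bp, above the inflamed mean of 18280 bp, and 16180 bp without HCC 3, below it. At chr8:11247837-11265947 the WT, inflamed and HCC means were 4715, 15724 and 12495 bp. Every inflamed liver lay above every WT liver there, and HCC 1, with 1167 bp, lay below 4 of the WT livers. Over all merged regions the share with such a separation was not computed. At chr8:11207615-11225125 peaks were seen in 3 WT, 5 inflamed and 4 HCC animals, with means of 1990, 4136 and 5963 bp. The last of these rests on HCC 3, with 17511 bp, and was 3076 bp without it, below the inflamed mean.

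A pair of small regions had a peak in every inflamed liver and in few other animals. The region chr8:11410325-11414902 was the only region of the 22 marked in every inflamed liver, with 3316 to 4439 bp each, and in no WT liver, a pattern shared by 4.82% of all merged regions. That region was present in 2 of 5 nodules. None of the 22 regions was marked in every nodule and no WT liver, a pattern of 0.220% of all merged regions. At so low a share, a count of 0 among 22 regions is not informative. With regions merged without HCC 3, 1 region had this pattern. The region chr8:11403016-11407755 was marked in 1 WT, 5 inflamed and 1 HCC animal, with 3158 to 4179 bp in inflamed livers. A further region, chr8:11232659-11237559, had a peak in 3 nodules and in none of the 10 other animals. These peaks were of 2389 bp in HCC 2, 4896 bp in HCC 3 and 3695 bp in HCC 4. Their score percentiles were 2.12, 80.8 and 41.9. The shares of all merged regions with the patterns of these last 2 regions were not computed.

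**Figure D3:**
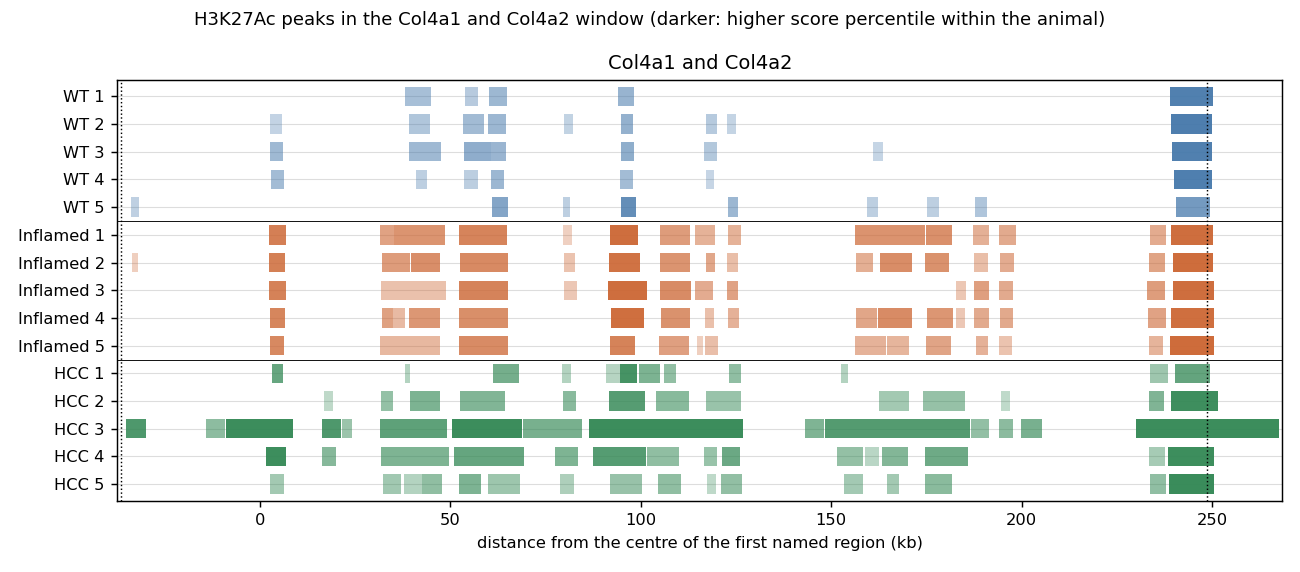
H3K27Ac peaks of each animal (rows) in the Col4a1 and Col4a2 window; the x axis is the distance in kb from the centre of the first named region, dotted lines are the window ends, and darker bars have a higher score percentile within the animal. Every animal has the region at the right edge. Inflamed livers and nodules have more of the window under peaks than WT livers, least so HCC 1, whose peaks are not wider than those of WT livers. The widest peak, of 40469 bp, is in HCC 3.

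Wide peaks of 1 animal can join neighbouring regions, so the windows were also compared base by base. At Col1a1, 9114 bp, or 47.6% of the bases under a peak of any WT or inflamed liver, were under peaks in all 5 inflamed livers and in no WT liver. The same share was 27.6% at Col1a2, 11.0% at Col3a1 and 18.7% at Col4a1 and Col4a2, against 4.36% of such bases over the genome. In the Col4a1 and Col4a2 window no base was under peaks in all WT livers and no inflamed liver, against 0.929% over the genome. The fibrillar windows could hold no such base, since none there was under peaks in all 5 WT livers.

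Bases lost between inflamed livers and nodules were counted in the same way. Bases under peaks in all 5 inflamed livers and in no nodule made up 29.5% at Col1a1, 15.0% at Col1a2 and 12.0% at Col3a1, against 0.984% over the genome, and 0 bp at Col4a1 and Col4a2. The 0 bp depends on HCC 3. At chr8:11403016-11407755 all 5 inflamed livers had a peak, and HCC 3 was the only nodule with a peak, of 4641 bp. Bases were not counted without HCC 3. In the type IV window 11547 bp, or 5.67%, were under peaks in all 5 nodules and in no WT liver, against 0.217% over the genome. The fibrillar windows could hold no such base, since HCC 5 had no peak there. Only 412 bp of the type IV window were in all nodules and no inflamed liver. This was 0.201% of its bases under a peak of any nodule or inflamed liver, equal to the share of 0.201% over the genome. Whether the type IV window differed from the fibrillar windows in its change from inflamed livers to nodules was not tested, and the comparisons share animals.

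Animals of 1 group also shared bases to different degrees. All 5 inflamed livers had peaks over the same 16025 bp at Col1a1, 6055 bp at Col1a2, 4307 bp at Col3a1 and 63334 bp at Col4a1 and Col4a2. WT livers and nodules had no base in common to all 5 animals at the fibrillar genes. At Col4a1 and Col4a2 they had 14369 bp and 32271 bp in common.

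Coverage was also taken over the 1 Mb on each side of each window. Around Col1a1 it was 13.6% to 19.6% over all 15 animals, with the groups overlapping. Around Col1a2 it was 2.501% to 5.30% in WT livers, 4.53% to 5.53% in inflamed livers and 2.13% to 9.52% in nodules. Around Col3a1 inflamed livers were higher on average, as in the window itself, with 3.13% ± 0.760 (2.28% to 4.30%) against 1.80% ± 0.752 in WT livers (0.514% to 2.47%; SD, n = 5), and nodules had 2.73% ± 1.44. Around Col4a1 and Col4a2 it was 7.00% to 12.1% in WT livers and 6.88% to 8.01% in inflamed livers. The part of the flanks in the Col3a1 difference was not tested.

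Calls for the length under peaks held when every list was cut to its best 26375 peaks, the length of the shortest. At Col1a1 inflamed livers then kept all their peaks, while nodules had 2586, 2345, 11264, 0 and 0 bp. At Col3a1 the cut left 11967, 1883, 14560, 5904 and 10492 bp in inflamed livers, so that Inflamed 2 fell within the WT range of up to 2865 bp, and the gain over WT livers was 7385 bp (exact permutation test, p = 0.0317). Markers of stellate cells, bile duct cells and other liver cell types could not be placed on mm9 here, and the part of cell composition in these differences was not tested.

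**Figure D4:**
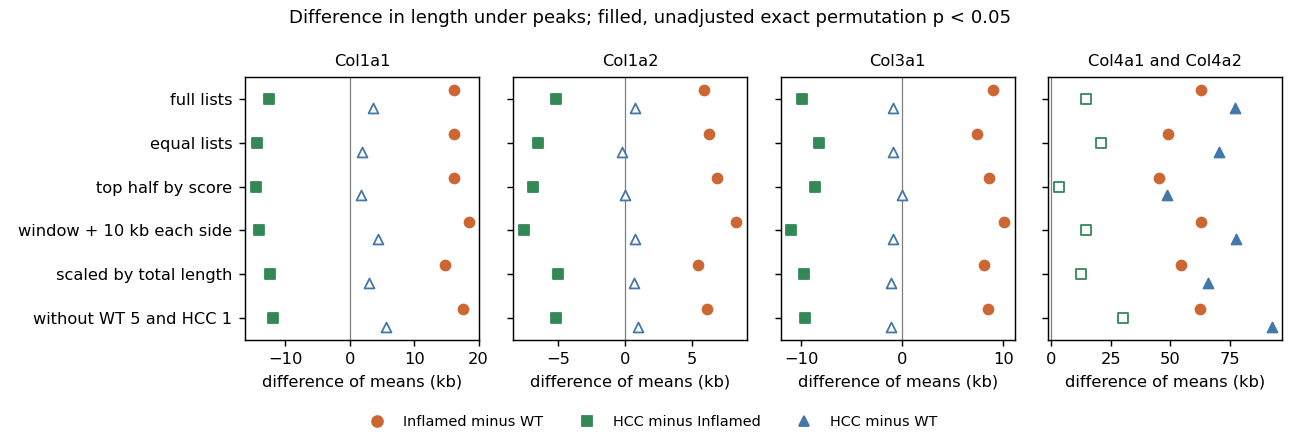
Difference in length under peaks (x axis) for each window and comparison under the main analysis and the alternatives, with filled symbols where the unadjusted exact permutation p was under 0.05. The gain of inflamed livers over WT livers is called in all 4 windows, and the differences between nodules and inflamed livers at Col4a1 and Col4a2 have open symbols under every setting shown.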

How the data were processed

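The authors made 1 H3K27Ac peak list per animal and deposited it with the position and the peak caller's score of each peak. The submitters' processing notes name Bowtie 0.12.7, MACS 1.4 and mm9; parameters, filters and the control used are not given in the sources used here. The deposited scores, from 50 to 3233.06, were used only to rank peaks within a list, where tied scores share a percentile. The IgG control library was not used here. Without read counts the depth per library, and with it the precision of each peak call, is unknown.

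Groups came from the labels. In each of 4 windows the bp under peaks (chromosomes 1 to 19 and X) were compared by exact two-sided permutation of the group labels (252 assignments), called at an unadjusted p under 0.05. Adjusted p-values are Benjamini-Hochberg over all genome tiles of the window's length with a peak in at least 1 compared animal, plus the window. Merged regions join overlapping or adjoining peaks of all 15 animals, and 1 bp of overlap counts as a peak present. A region was called when every animal of one group and no animal of the other had a peak. Regions named in the text had a peak in at least 8 of 15 animals, or in numbers of animals differing by at least 3 between groups; single-animal regions described otherwise were picked after their values were seen. The genes, windows and lists were chosen with earlier results of these data known. Lists of other matrix genes, of cell type markers and of genes most like each member were planned and not computed, since no mm9 annotation was used. Alternatives were the top 50% of each list, equal lists of 26375 peaks, numbers of peaks, windows extended by 10000 bp, scaling by total covered length, a peak over at least 50% of a region, a peak in at least 4 of 5 against at most 1 of 5 animals, and leaving out animals. The window ending before its last region, and regions merged without HCC 3, were added after seeing the data. Tests were tried on simulated lists first. Python 3.11.15, NumPy 2.4.6 and matplotlib 3.10.9 were used.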

Additional observations from a re-analysis of the deposited data

Results flagged for a closer look

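At Col1a1, WT 5 stood far from the other WT livers, with 6911 bp under peaks against 0 bp in each of the other 4, and with 3 peaks against 0. These were the only 2 such cases among 24 groups of values examined. The rule's chance of about 1 in 20 does not apply to them, since any single non-zero value beside 4 values of 0 is flagged. Both cases come from the same 3 peaks, which lie in the 3 regions that all inflamed livers share, at score percentiles of 21.8, 31.3 and 35.4.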

How the results depend on the processing

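For the length under peaks, scaling by total length, extended windows and leaving out WT 5 with HCC 1 kept the direction and the call of all 12 differences. Counted as peaks, Col1a2 in nodules against inflamed livers was -0.8 peaks (exact permutation p = 0.167), no longer called, and Col4a1 and Col4a2 turned to -1 peak (exact p = 0.476). With equal lists, Col1a2 in nodules against WT livers turned to -236.6 bp (exact p = 0.683). Differences that turned had not been called.

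Leaving out 1 animal at a time, inflamed minus WT livers was 15820 to 17547 bp at Col1a1, 5703 to 6367 at Col1a2, 7426 to 10188 at Col3a1 and 60053 to 64957 at Col4a1 and Col4a2. Nodules minus inflamed livers was -14086 to -11270, -5589 to -4715, -11091 to -8329 and -8451 to 30154 bp, and nodules minus WT livers 2079 to 5022, 346 to 1222, -1519 to -342 and 54326 to 92930 bp. Only 1 direction changed, at Col4a1 and Col4a2 without HCC 3 (-8451 bp, nodules minus inflamed livers).

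Region counts moved with the rule. The 1 region present in all inflamed and no WT livers became 6 with the top 50% of lists, 6 with at least 50% of the region covered, 6 with 4 of 5 against at most 1 of 5, 2 with regions merged without HCC 3 and 0 with equal lists, and 1 to 5 leaving out 1 animal (5 without WT 5, 2 without WT 3). The 1 region present in all inflamed livers and no nodule became 3 with the top 50%, 3 with 4 of 5 against at most 1 of 5, and 1 to 3 leaving out 1 animal (3 without HCC 3). For nodules against WT livers 0 regions became 2 with 4 of 5 against at most 1 of 5 and 1 with regions merged without HCC 3, and stayed at 0 leaving out 1 animal. The shares of all merged regions called under these other rules were not computed, so these counts do not single out the collagen windows. The cause of these moves was not tested. No paired analysis was possible because the labels give animal numbers and no replicate numbers shared between groups.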

Other observations

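When regions were merged without HCC 3, whose wide peaks join neighbours, the Col4a1 and Col4a2 window held 13 regions. Of these, chr8:11449194-11454619 had a peak in all 5 inflamed livers and all 5 nodules, HCC 3 included, and in no WT liver. The region chr8:11293735-11299856 had a peak in 2 WT livers, 3 inflamed livers and 5 nodules. Both were picked after their values were seen, and the share of all regions with such patterns was not computed.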
